A study of Mus musculus with 12 samples.

Results

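The 10 genes described here encode proteins that return a photoreceptor to its dark state after light or that set how fast it makes cyclic GMP. They were taken by gene symbol from a table of 52378 genes: Guca1a, Guca1b, Gucy2e, Gucy2f, Rcvrn, Grk1, Rgs9, Rgs9bp, Gnb5 and Slc24a1. All 10 were found, with 27 annotated transcripts between them. The measurements are poly(A) RNA sequencing of whole mouse retina in 12 libraries, 3 in each of 4 groups. The groups are Pilrb1/2+/+ retina at 28 days after birth (P28), Pilrb1/2 -/- retina at P28, and retina of both genotypes at 12 months. The series text places the CRISPR deletion in C57BL/6J zygotes and lists Pilra among the deleted genes as well, whereas the sample labels name Pilrb1/2 only. Edited founders were bred to C57BL/6J mice over several generations per the series text, and the labels name no other allele, transgene or treatment in either genotype. Nothing in the labels ties each library to its own animal, so p-values measure the spread between these libraries, which may be technical. Gene levels are given in CPM, the deposited depth-scaled counts after TMM scaling, and transcript levels in RPKM, which are also scaled by transcript length. A gene or transcript is said to rise, fall or pass where its Benjamini-Hochberg adjusted p over all features tested by limma was under 0.05.

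In a photoreceptor, light activates an opsin, transducin and a phosphodiesterase in turn, cyclic GMP falls, and cation channels close. Recovery needs each step to be switched off and cyclic GMP to be made again. The retinal guanylate cyclases Gucy2e and Gucy2f make it, and the calcium sensors Guca1a and Guca1b, which encode the cyclase activating proteins, speed the cyclases up when calcium drops. Slc24a1 encodes the rod exchanger that pumps the calcium out. Grk1 encodes the kinase that phosphorylates light-activated opsin, and Rcvrn encodes recoverin, which holds that kinase back at high calcium. Rgs9, its anchor Rgs9bp and the G protein beta subunit Gnb5 form the complex that makes transducin hydrolyse its GTP.

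The deletion could not be checked in Pilrb1 and Pilrb2, which were at most 0.0520 CPM in every library of either genotype, under the floor of 3 reads (0.111 to 0.192 CPM). Pilra, which the series text lists as deleted, was 0.133, 0.167 and 0.170 CPM in the wild-type libraries against 0.441, 1.16 and 0.819 CPM in the knockout ones at P28. At 12 months it was 0.159, 0.221 and 0.268 CPM against 0.0556, 0.309 and 0.293 CPM. Reads from Pilra were thus above the floor in all 3 P28 knockout libraries and higher there than in wild type. At 12 months the genotypes overlapped, and knockout library 1 was under its floor of 0.192 CPM. Which part of Pilra these reads come from was not tested. Depth was estimated by taking the most frequent value above 0 of each library as 1 read. It ran from 14.7 M to 25.9 M reads per library (M for 1e6 reads). Only 10.8 to 28.5% of low values were whole multiples of that value, so depth and the floor of 3 reads are approximate. P28 knockout library 2 stood apart: it had the lowest depth, 14.7 M reads, the lowest share of mitochondrial signal, 4.56%, and a summed level of 7 lens genes of 4959 CPM against 9.98 to 1771 CPM elsewhere. The mitochondrial share also separated the genotypes, in opposite directions at the 2 ages: it was 7.36 to 9.31% in wild type and 4.56 to 7.08% in knockout at P28, and 7.36 to 8.29% and 9.94 to 12.6% at 12 months. Its part in the results on knockout was not tested. The labels give no sex. Xist was above 100 CPM in 2 of the 3 P28 knockout libraries (libraries 2 and 3) and in 2 of the 3 wild-type libraries at 12 months (libraries 1 and 2), and in none of the others. All 9 rod markers and all 8 cone markers were present in every group. The rod sum was 32139 to 42985 CPM in wild type and 22550 to 28364 CPM in knockout at P28, and 36208 to 43309 CPM and 22105 to 29084 CPM at 12 months. The cone sum was 1148 to 1402 CPM in wild type and 918 to 1212 CPM in knockout at P28, and 1253 to 1366 CPM and 869 to 978 CPM at 12 months. No rod or cone marker was at 0 in all libraries of a group. In such bulk samples fewer cells of a type and less RNA per cell cannot be told apart, and the part of the rod and cone marker differences in any result on knockout was not tested.

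The sequences given are the starts of 4 member genes and, further on, an alternative coding start of Gnb5. RefSeq promoter entries (build GRCm38.p6) were matched for 7 of the 10 members, and not for Guca1b, Rcvrn and Rgs9bp. The letters TAATCC, or GGATTA on the other strand, are the core that the photoreceptor factor CRX is known to bind, and they were searched in the 250 bases before each start on both strands. They occurred in 4 of the 7 windows, and in 6.25% of all 32851 promoter windows of that length. The match is a description of these letters and shows no binding. The 120 bases before the start are printed 5′ to 3′ on the gene's strand with the match in capitals, for Guca1a (chr17:47400607-47400726, minus strand), Gucy2e (chr11:69237023-69237142, minus strand), Gucy2f (chrX:142196937-142197056, minus strand) and Gnb5 (chr9:75306168-75306287, plus strand).
Guca1a: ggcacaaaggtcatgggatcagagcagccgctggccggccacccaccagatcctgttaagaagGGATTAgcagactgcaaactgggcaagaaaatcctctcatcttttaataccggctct
Gucy2e: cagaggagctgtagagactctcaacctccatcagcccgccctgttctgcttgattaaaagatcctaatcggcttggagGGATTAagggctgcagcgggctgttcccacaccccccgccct
Gucy2f: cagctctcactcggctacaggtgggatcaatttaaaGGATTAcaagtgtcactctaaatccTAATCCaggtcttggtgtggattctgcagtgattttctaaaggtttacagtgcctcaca
Gnb5: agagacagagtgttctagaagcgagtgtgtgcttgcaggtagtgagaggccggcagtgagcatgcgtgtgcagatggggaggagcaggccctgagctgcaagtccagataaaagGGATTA
Counted from its first base, the match began 57 bases before the start in Guca1a, 42 in Gucy2e and 6 in Gnb5, while Gucy2f held 2 matches, 84 and 59 bases before the start. Guca1a and Gucy2f both carry the letters. With the deposited scaling their knockout RNA levels differed from wild type in opposite directions at 12 months, as described further on. Any part of the letters in these differences was not tested. The start used for Gnb5 is that of its long coding form, Gnb5-202.

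Levels between genes were compared per length, as deposited RPKM summed over each gene's transcripts. Rcvrn had the highest mean over the 12 libraries, 409 RPKM, then Gnb5 with 357, Grk1 with 352, Slc24a1 with 252, Guca1b with 244, Rgs9bp with 197, Rgs9 with 195, Guca1a with 172, Gucy2e with 78.6 and Gucy2f with 56.5 RPKM. Of neighbours in this order, Grk1 exceeded Slc24a1 and Gucy2e exceeded Gucy2f in 12 of 12 libraries each. Guca1a exceeded Gucy2e in 10, and the other neighbours were in this order in 5 to 9 of 12 libraries, so their order was not settled. Both cyclases thus had less RNA per length than either of their calcium sensors in the mean over all libraries. All 10 genes passed the filter on low values and lay far above the floor, the lowest value being 46.7 CPM for Guca1a in a P28 knockout library.

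The calcium sensors of the cyclases fell in knockout retina at 12 months. Guca1a (chr17:47394558-47400584, minus strand, protein coding) and Guca1b (chr17:47385393-47392967, plus strand, protein coding) lie tail to tail in GRCm38 with 1590 bases between their ends. Each has a second, equal row on an assembly patch in the deposited table, and the values here are the sums of both rows. At 12 months Guca1a was 277, 217 and 264 CPM in the wild-type libraries against 124, 62.5 and 140 CPM in the knockout ones. No knockout library reached the lowest wild-type library, and the log2 fold change was -1.28 ± 0.36 (SE, n = 3 and 3, limma adjusted p = 0.0155), a level 0.411 times that of wild type. The call ended without wild-type library 1 (-1.21, adjusted p 0.0548) and without knockout library 2 (-0.93, adjusted p 0.0745), both by limma. With a sex term it was -1.18 (limma adjusted p = 0.0722), and with no filter on low genes the adjusted p was 0.0551. Guca1b at 12 months was 583, 488 and 576 CPM in the wild-type libraries against 324, 198 and 352 CPM in the knockout ones. These groups did not overlap either, and Guca1b fell by 0.95 on the log2 scale (SE 0.21, limma adjusted p = 0.00509).

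At P28 Guca1a was low in 2 of the 3 knockout libraries and Guca1b was lower in all 3. Guca1a was 202, 138 and 129 CPM in the wild-type libraries against 60.6, 142 and 46.7 CPM in the knockout ones, with library 2, the one that stood apart, inside the wild-type range. Its log2 fold change was -1.05 ± 0.36 (SE), and did not pass (limma adjusted p = 0.128). Guca1b was 533, 452 and 413 CPM in the wild-type libraries against 299, 372 and 234 CPM in the knockout ones. These groups did not overlap, but the log2 fold change of -0.64 ± 0.21 (SE) did not pass (limma adjusted p = 0.110). Without knockout library 2 both fell at P28, Guca1a by 1.51 (limma adjusted p = 0.0126) and Guca1b by 0.81 on the log2 scale (limma adjusted p = 0.0368). Over both ages Guca1a fell by 1.16 (limma adjusted p = 0.00574) and Guca1b by 0.80 on the log2 scale (limma adjusted p = 0.00296).

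**Figure D1:**
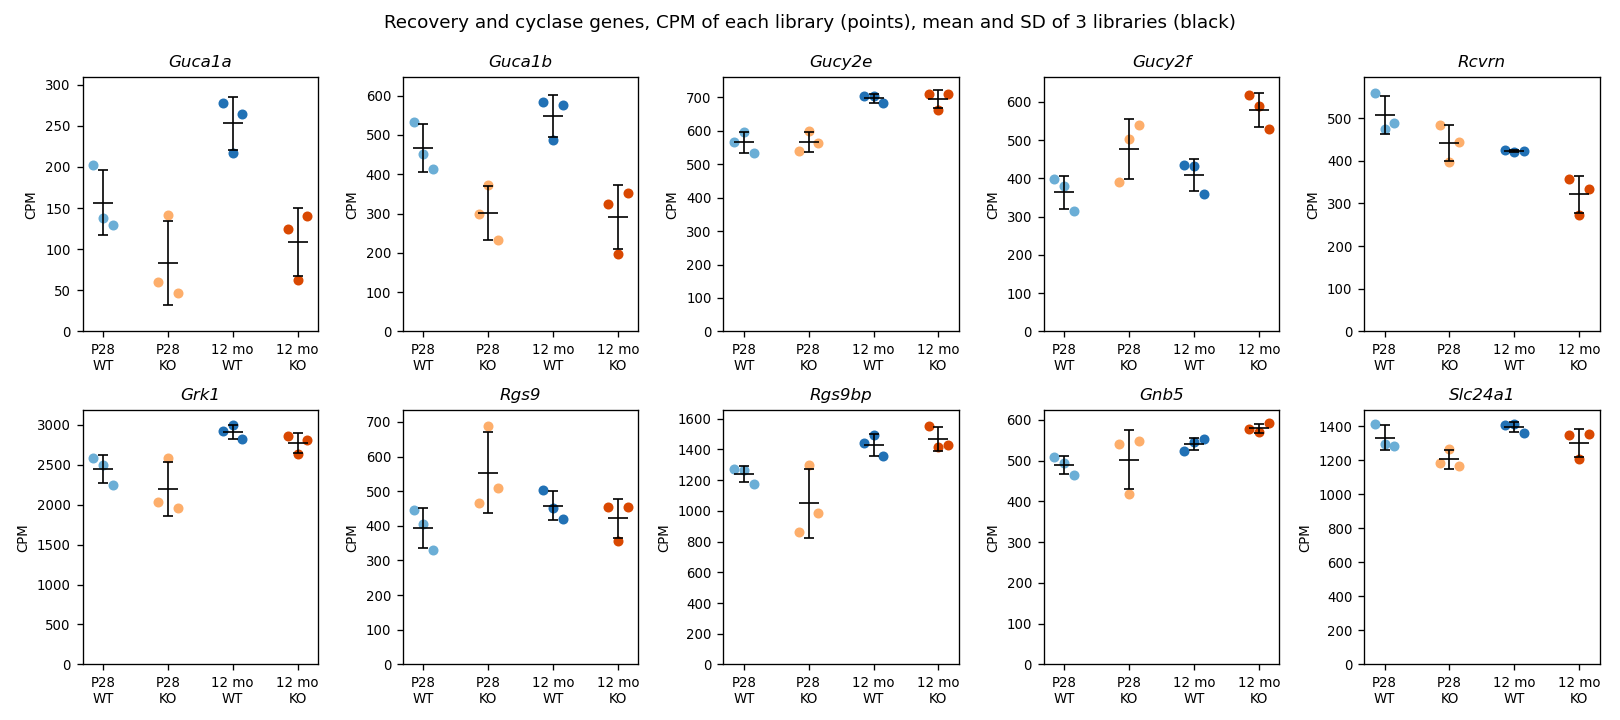
Each panel plots 1 gene, with CPM on the vertical axis from 0 and the 4 groups (WT wild type, KO knockout) on the horizontal axis. Points are libraries and black bars the mean and SD of 3 libraries. Guca1a and Guca1b are lower and Gucy2f higher in all 3 knockout libraries at 12 months than in any wild-type library of that age, while the Gucy2e groups overlap between genotypes at both ages.

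Of the cyclases, Gucy2f rose at 12 months and Gucy2e did not pass at either age. Gucy2e (chr11:69218117-69237036, minus strand), which encodes the main cyclase of rods and cones, was 566, 596 and 532 CPM in the wild-type libraries against 540, 598 and 564 CPM in the knockout ones at P28. At 12 months it was 704, 704 and 681 CPM in the wild-type libraries against 711, 663 and 709 CPM in the knockout ones. The groups overlapped at both ages. Its log2 fold change was 0.0069 at P28 (95% interval -0.16 to 0.18) and -0.0053 at 12 months (-0.18 to 0.17).

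Gucy2f (chrX:142081160-142196931, minus strand), the second retinal cyclase, was 435, 433 and 360 CPM in the wild-type libraries at 12 months against 618, 589 and 529 CPM in the knockout ones. The knockout libraries were all above the wild-type ones, and Gucy2f rose by 0.50 ± 0.13 on the log2 scale (SE, limma adjusted p = 0.0116). At P28 it was 397, 380 and 316 CPM in the wild-type libraries against 390, 504 and 539 CPM in the knockout ones, and the log2 fold change of 0.38 ± 0.13 (SE) did not pass (limma adjusted p = 0.129). Gucy2f is on the X chromosome, and the 2 higher P28 knockout libraries are the 2 with high Xist. With a term for sex read from Xist, the P28 difference was 0.15 (limma adjusted p = 0.643) and the 12-month difference 0.73 (limma adjusted p = 0.00727). Without wild-type library 3 the 12-month difference was 0.41 and did not pass (limma adjusted p = 0.0552), and under quantile normalization it was 0.28 (0.0868). The only wild-type library at 12 months without high Xist, library 3, was the lowest of its group with 360 CPM. The 3 knockout libraries, none of which had high Xist, had at least 529 CPM. Being 1 library, this comparison cannot tell sex and genotype apart.

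The balance of sensors and cyclases in RNA per length was lower in the knockout groups. The summed RPKM of Guca1a and Guca1b over that of Gucy2e and Gucy2f was 4.64, 3.58 and 3.78 in wild type and 2.17, 2.86 and 1.42 in knockout at P28. At 12 months the ratio was 4.80, 3.91 and 5.11 in wild type and 2.08, 1.23 and 2.42 in knockout. No knockout library reached the lowest wild-type library of its age. This ratio was computed after the single genes were seen and is given as a description. The main transcripts of the sensors had GC contents of 55.7% (Guca1a) and 55.9% (Guca1b). Those of the cyclases had 52.6% (Gucy2e) and 42.0% (Gucy2f). The ratio was not computed with GC and length trends removed, and the part of GC in it was not tested.

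Of the kinase of light-activated opsin and its inhibitor recoverin, the inhibitor fell at 12 months and the kinase did not pass. Rcvrn (chr11:67695326-67703333, plus strand) was 426, 421 and 422 CPM in the wild-type libraries against 357, 273 and 334 CPM in the knockout ones at 12 months. Every knockout library was below every wild-type library, and Rcvrn fell by 0.41 on the log2 scale (SE 0.11, limma adjusted p = 0.0129). Without knockout library 2 the value was -0.29 and did not pass (limma adjusted p = 0.0634). At P28 the groups overlapped, at 559, 476 and 489 CPM in the wild-type libraries against 484, 398 and 445 CPM in the knockout ones, and the log2 fold change of -0.20 did not pass (limma adjusted p = 0.309). Grk1 (chr8:13405081-13421951, plus strand) did not pass at either age. It was 2918, 3004 and 2829 CPM in the wild-type libraries against 2864, 2630 and 2815 CPM in the knockout ones at 12 months, with a log2 fold change of -0.08 (95% interval -0.33 to 0.18). At P28 it was 2583, 2498 and 2248 CPM in the wild-type libraries against 2031, 2584 and 1964 CPM in the knockout ones, where library 2 was again the highest of the knockout group. Its P28 log2 fold change was -0.16 (limma adjusted p = 0.445), and -0.29 without that library (0.0662).

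The transducin shut-off complex did not pass as genes in either comparison. Rgs9 (chr11:109225355-109298129, minus strand), the catalytic member, was 446, 405 and 331 CPM in the wild-type libraries against 465, 688 and 509 CPM in the knockout ones at P28, so every knockout library was higher. The log2 fold change of 0.48 ± 0.16 (SE) did not pass (limma adjusted p = 0.114), and without library 2 it was 0.31 (limma adjusted p = 0.160). At 12 months Rgs9 was 504, 451 and 420 CPM in the wild-type libraries against 455, 357 and 454 CPM in the knockout ones, and the groups overlapped. Rgs9bp (chr7:35578993-35585582, minus strand), the membrane anchor, was 1271, 1267 and 1178 CPM in the wild-type libraries against 861, 1298 and 987 CPM in the knockout ones at P28. Library 2 lay above the whole wild-type group, and without it Rgs9bp fell by 0.43 on the log2 scale (limma adjusted p = 0.0165) against -0.26 with it (limma adjusted p = 0.261). At 12 months the Rgs9bp groups overlapped, at 1440, 1494 and 1356 CPM in the wild-type libraries against 1556, 1418 and 1427 CPM in the knockout ones.

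Gnb5 (chr9:75306288-75345876, plus strand), the beta subunit of the complex, was 523, 545 and 552 CPM in the wild-type libraries against 577, 570 and 591 CPM in the knockout ones at 12 months. The groups did not overlap, although the difference was small and did not pass (log2 fold change 0.10, limma adjusted p = 0.442). At P28 it was 510, 493 and 464 CPM in the wild-type libraries against 540, 419 and 548 CPM in the knockout ones. Slc24a1 (chr9:64922861-64951607, minus strand), the rod calcium exchanger, was lower in every knockout library at both ages by a small margin, with 1416, 1296 and 1284 CPM against 1185, 1268 and 1165 CPM at P28. At 12 months it was 1410, 1413 and 1361 CPM in the wild-type libraries against 1348, 1208 and 1355 CPM in the knockout ones. Its log2 fold changes of -0.14 and -0.10 did not pass (limma adjusted p = 0.364 and 0.384). Under quantile normalization Slc24a1 did fall at 12 months, by 0.34 (limma adjusted p = 0.0158), and over both ages by 0.26 on the log2 scale (limma adjusted p = 0.0121).

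**Figure D2:**
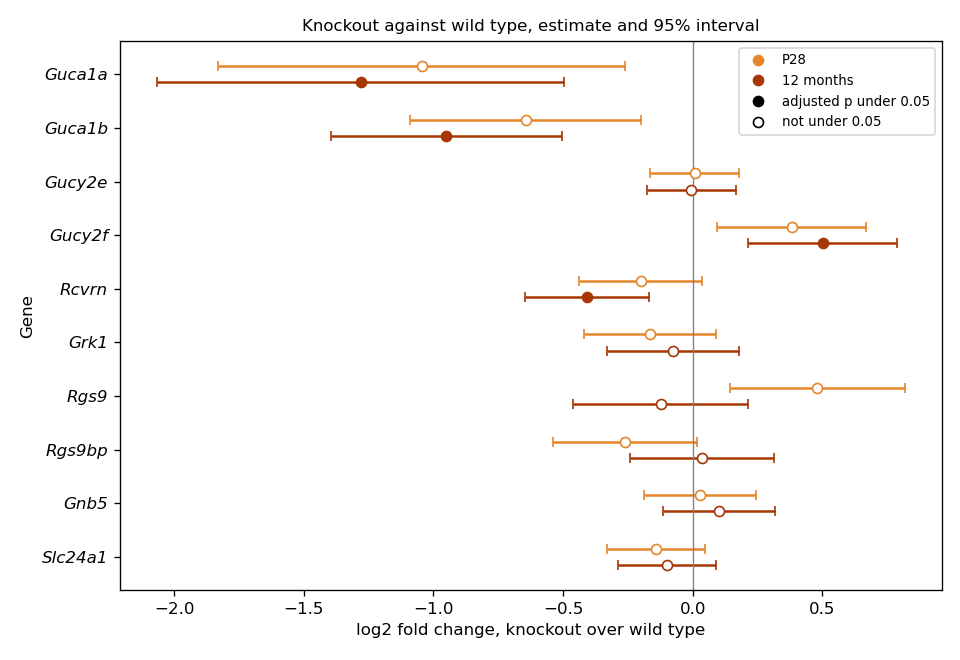
The horizontal axis is the log2 fold change of knockout over wild type with its 95% interval from limma, and each row is a gene, at P28 (upper, light) and 12 months (lower, dark). Filled points had an adjusted p under 0.05: Guca1a, Guca1b, Rcvrn and Gucy2f at 12 months, and none at P28.

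Counted together, 0 of the 10 genes passed at P28 by limma, where 1.48% of all 16336 tested genes did, and 4 had an unadjusted p under 0.05 (Guca1a, Guca1b, Gucy2f and Rgs9), against 21.4% of all genes. Without knockout library 2, 3 passed (Guca1a, Guca1b and Rgs9bp), against 8.63% of the genes then tested, and the other 7 did not. Their P28 log2 fold changes without that library were -0.03 for Gucy2e, 0.34 for Gucy2f, -0.13 for Rcvrn, -0.29 for Grk1, 0.31 for Rgs9, 0.15 for Gnb5 and -0.18 for Slc24a1 (limma adjusted p from 0.0662 for Grk1 to 0.806 for Gucy2e). Groups did not overlap for 3 of 10 genes at P28, against 23.8% of all genes. At 12 months 4 of 10 passed, against 39.4% of all genes, so the share of members called was near that of the whole table. Of these 3 were lower and 1 higher, against 23.4% and 16% of all genes. Under quantile normalization 4 were lower, with Slc24a1 added, and none higher. Groups did not overlap for 6 of 10, against 59% of all genes. The median log2 fold change of the members was -0.15 at P28 and -0.09 at 12 months, and that of all genes -0.01 and -0.03. Over both ages the same 4 genes passed, against 35% of all genes. Without P28 knockout library 2, 7 passed over both ages, with Grk1 (-0.18), Rgs9bp (-0.19) and Gnb5 (0.13) added, against 46.1% of the genes then tested. The difference of the knockout effect between ages passed for 0 of 10, against 0.178% of all genes, and Rgs9 alone had an unadjusted p under 0.05 (a log2 difference of -0.60, limma adjusted p = 0.120), against 26.7% of all genes. The larger 12-month values of Guca1a and Guca1b were therefore not shown to differ from those at P28.

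GC content moved with the 12-month values. The main transcripts of Guca1b, Guca1a and Rcvrn, the 3 genes that fell, had the highest GC of the 10, 55.9%, 55.7% and 53.9%, and that of Gucy2f, which rose, had the lowest, 42.0%. When a smooth trend of GC and length was removed from each library, the 12-month log2 fold change was -0.62 for Guca1a (limma adjusted p = 0.186), -0.34 for Guca1b (0.116), 0.12 for Gucy2f (0.529) and 0.12 for Rcvrn (0.508). None of these 4 passed, and Rcvrn changed sign. Gucy2e then passed instead, with 0.26 (limma adjusted p = 0.0442). Over both ages Guca1a and Guca1b still fell, by 0.72 (limma adjusted p = 0.0410) and 0.38 (limma adjusted p = 0.0222). This removal took the number of genes called at 12 months over the whole table from 6434 to 1089 (6.72% of the genes then tested).

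**Figure D3:**
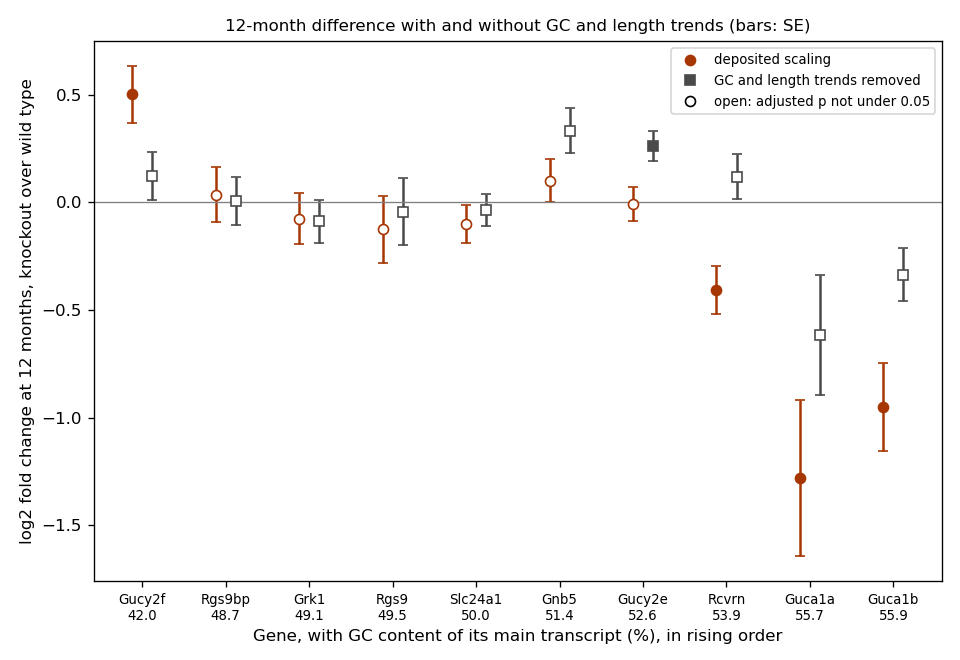
The vertical axis is the 12-month log2 fold change of knockout over wild type with its SE, and genes stand in rising order of the GC content of their main transcript (%). Circles use the deposited scaling and squares the values after GC and length trends were removed; filled symbols passed. The circles at both ends of the order, Gucy2f and the 3 genes of highest GC, lie farther from 0 than their squares.

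The other genes of recovery and the cyclase system, a list of 19, included 9 that fell and 4 that rose at 12 months, with a median log2 fold change of -0.41, where 23.4% of all genes fell and 16% rose. After removal of the trends in GC and length, 2 of them fell at 12 months (Rgs11 and Unc119) and none rose, with a median of -0.17. Of all 16211 genes then tested, 503 fell and 586 rose. In the list of 19, 0 passed at P28 and 4 had an unadjusted limma p under 0.05, against 1.48% and 21.4% of all genes. When P28 knockout library 2 was left out, Arr3 (cone arrestin) fell at P28, the only 1 of the 19 to pass, against 8.63% of the genes then tested. Rgs11, a regulator of G protein signalling of the bipolar cell cascade, fell by 0.93 (limma adjusted p = 0.00357). Unc119, which encodes a carrier of lipid-modified transducin, fell by 1.14 (limma adjusted p = 0.00391). Rd3, which encodes the protein that restrains the cyclases and helps carry them out of the inner segment, fell by 0.99 on the log2 scale (limma adjusted p = 0.00404). Rd3 was 86.2, 73.9 and 84.1 CPM in the wild-type libraries against 44.7, 28.0 and 52.4 CPM in the knockout ones, without overlap. Over both ages 3 rose and 9 fell, among them Pde6d, a carrier of prenylated proteins, which fell by 0.43. Of all 16336 genes, 2330 rose and 3386 fell over both ages. At P28 Pde6d had a log2 fold change of -0.46 (limma adjusted p = 0.0723), Slc24a2, the cone calcium exchanger, of 0.32 (0.116) and Unc119 of -0.55 (0.190). Of 18 activation genes, 3 fell at P28 and 12 fell at 12 months, and 0 rose in either, with medians of -0.29 and -0.41. Of all 16336 genes, 78 fell at P28 and 3823 at 12 months. After the same removal 3 activation genes fell at P28 and 8 at 12 months, where 144 and 503 of all 16211 genes fell. Without P28 knockout library 2 the P28 count was 6, where 515 of all 16211 genes fell. The 3 activation genes called at P28 with the deposited scaling and all libraries were cone genes. They were Gnat2 (cone transducin), Pde6h (cone phosphodiesterase inhibitor) and Opn1sw (short-wavelength opsin), which fell by 0.41, 0.94 and 0.52. Over all 16336 genes, the P28 calls went from 241 to 1 with the sex term. They went to 0 when only the compared groups were fitted. At most 1 of these 3 cone genes can thus pass with the sex term, and none with only the compared groups. At 12 months Gnb3, Pde6h and Gngt2, also of the cone cascade, had the smallest p and fell by 1.46, 1.23 and 0.91. Over both ages Pde6h, Opn1sw and the rod inhibitor Pde6g led, and fell by 1.08, 0.55 and 1.06 on the log2 scale. Neither list had a gene that passed for the difference between ages. The smallest adjusted p there were 0.0642 for Pde6c and 0.0657 for Rgs11 by limma. In that comparison 6 activation genes and 7 recovery genes had an unadjusted p under 0.05, against 26.7% of all genes. Pde6c alone passed for the difference when P28 knockout library 2 was left out, where 237 of all 16211 genes passed.

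With age, Gucy2e rose in both genotypes, and in knockout Grk1 and Rgs9bp rose and Rcvrn fell. Gucy2e rose in wild type from a mean of 565 ± 32.1 CPM at P28 to 696 ± 13.0 CPM at 12 months (SD, n = 3 each), by 0.30 ± 0.08 on the log2 scale (SE, limma adjusted p = 0.0429). It was the 1 of 10 genes that passed there, against 5.42% of all genes. The call ended in 8 of the 12 fits that left out 1 library (highest adjusted p 0.196, without wild-type P28 library 3), and with the sex term (adjusted p 0.234). In knockout retina 4 of 10 passed with age, against 27.2% of all genes (13.4% higher and 13.9% lower). Gucy2e rose by 0.29 (limma adjusted p = 0.0176), Grk1 by 0.35 (0.0446) and Rgs9bp by 0.50 (0.0135), and Rcvrn fell by 0.46 on the log2 scale (limma adjusted p = 0.00949). After GC and length trends were taken out, Rcvrn no longer passed with age in knockout (-0.21, limma adjusted p = 0.183). Gnb5 and Slc24a1 then rose, which made 5 of 10, all higher, against 21.7% of the genes then tested. Without P28 knockout library 1 Gucy2e had 0.26 (adjusted p 0.0637) and Rgs9bp 0.37 (0.0561), and without 12-month knockout library 1 Gucy2e had 0.27 (0.0591). The Grk1 call ended in 11 of the 12 fits that left out 1 library, and remained without P28 knockout library 2 (0.47, limma adjusted p = 0.00336). Without that library Guca1a also rose with age in knockout, by 0.94 (limma adjusted p = 0.0340), which made 5 of 10, against 25.4% of the genes then tested.

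The values of both genotypes lay side by side as follows. Grk1 had an age log2 fold change of 0.26 in wild type, which did not pass (limma adjusted p = 0.250), and Rgs9bp of 0.21 (0.409), and in both genes all 12-month libraries were above all P28 libraries in both genotypes. Rcvrn had -0.26 in wild type (limma adjusted p = 0.216), with every 12-month library lower. Rgs9 had 0.22 in wild type and -0.38 in knockout, neither of which passed. Guca1a had 0.71 in wild type, where the groups did not overlap, and 0.47 in knockout, and neither passed (limma adjusted p = 0.307 and 0.343). Groups did not overlap with age for 6 of 10 genes in wild type and 6 of 10 in knockout, against 34.9% and 36% of all genes. Of the other recovery genes, Pdc (phosducin, which binds transducin subunits) fell with age in wild type by 0.58, next to Rdh12 with -0.44 and Rgs7 with -0.21, which did not pass. In knockout 1 of the 19 rose and 7 fell, where 13.4% of all genes rose and 13.9% fell. The smallest p were those of the retinol dehydrogenases Rdh8, which fell to 0.467 times its P28 level, and Rdh12, to 0.664 times, and of Rgs11, to 0.562 times. After GC and length trends were taken out, 5 of the 19 fell and none rose, and without P28 knockout library 2 again 5 fell and 1 rose. Of all 16211 genes tested in either setting, 1600 fell and 1915 rose without the trends. Without that library 2119 genes fell and 1998 rose. Of the activation genes none of 18 passed in wild type, where 3 had an unadjusted limma p under 0.05 (Opn1mw -0.39, Cngb1 0.42, Gnb3 0.57). In knockout 2 activation genes rose and 5 fell, against 13.4% and 13.9% of all genes. The smallest p were those of Opn1mw with -0.71, Pde6a with 0.48 and Gngt2 with -0.73. Either without the GC and length trends or without P28 knockout library 2, 1 of the 18 rose and 4 fell, against the counts over all genes given above.

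**Figure D4:**
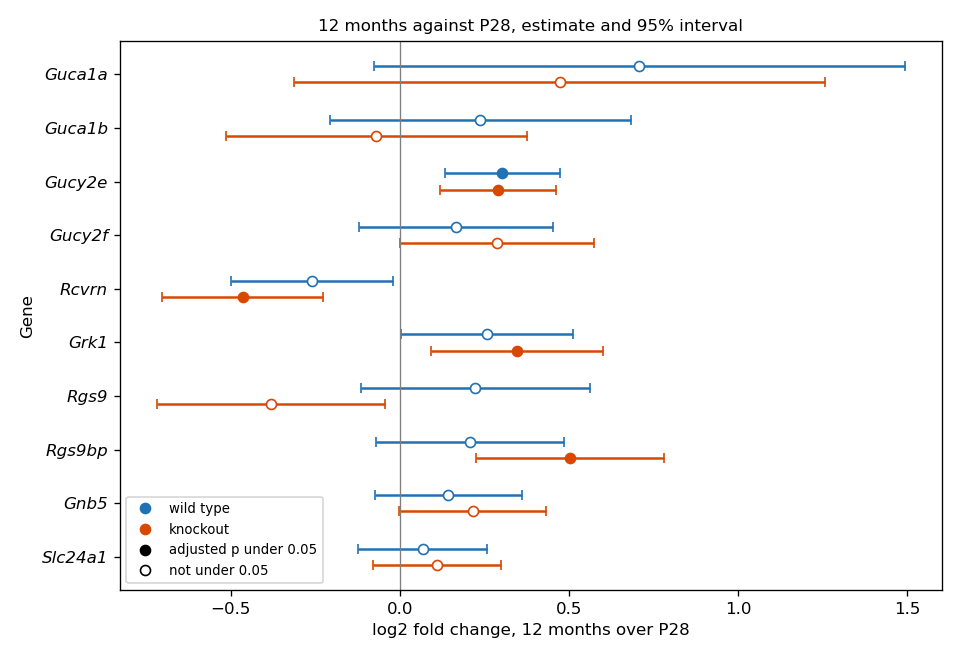
The horizontal axis is the log2 fold change of 12 months over P28 with its 95% interval from limma, for wild type (upper, blue) and knockout (lower, orange), 1 row per gene. Filled points passed at an adjusted p under 0.05: Gucy2e in both genotypes, and Grk1, Rgs9bp and Rcvrn in knockout.

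Single transcripts showed differences that the gene sums did not. Of the 27 transcripts 24 passed the filter on low values. At P28 0 of 24 passed by limma, against 0.305% of all 46607 transcripts, and 13 had an unadjusted p under 0.05, against 14.7% of all transcripts. Without P28 knockout library 2, 3 passed at P28, against 1.4% of the transcripts then tested: Guca1a-201 fell by 1.54 (limma adjusted p = 0.0458), Rgs9bp-201 fell by 0.43 (0.0379) and Gnb5-203 rose by 1.42 (0.00923). At 12 months 2 rose and 6 fell, against 6.51% and 10.5% of all transcripts (17% in either direction). Leaving out wild-type library 1 or 3 or knockout library 2 at 12 months left 0 of these calls.

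Gnb5 has a long and a short coding form that start at different exons. Gnb5-202 (13 exons, 395 codons) is the long form, known from photoreceptors as the partner of the retinal Rgs9 protein, and Gnb5-206 (11 exons, 353 codons) is the short form of other neurons. Gnb5-201 codes for the same length as Gnb5-202 and was listed at 0. The 126 coding bases of Gnb5-202 that no exon of Gnb5-206 holds lie at chr9:75311395-75311520 (GRCm38, plus strand, exonic, with the start codon in capitals).
Gnb5-202 first coding bases: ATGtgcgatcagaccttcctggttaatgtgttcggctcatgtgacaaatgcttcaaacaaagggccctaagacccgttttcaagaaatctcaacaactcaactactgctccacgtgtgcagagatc
The long form was 104, 76.6 and 89.6 RPKM in the wild-type libraries against 56.4, 32.5 and 54.5 RPKM in the knockout ones at 12 months, without overlap, and it fell by 0.94 on the log2 scale (SE 0.21, limma adjusted p = 0.0179). Without wild-type library 1 the fall was 0.83 (limma adjusted p = 0.0752), without wild-type library 3 0.94 (0.0544) and without knockout library 2 0.69 (0.0513). At P28 it was 101, 83.3 and 73.6 RPKM in the wild-type libraries against 62.3, 64.3 and 54.5 RPKM in the knockout ones, also without overlap, with a log2 fold change of -0.50 that did not pass (limma adjusted p = 0.304), nor without knockout library 2 (-0.54, limma adjusted p = 0.258).

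The short form Gnb5-206 went the other way at 12 months, at 132, 156 and 155 RPKM in the wild-type libraries against 176, 200 and 182 RPKM in the knockout ones. Its log2 fold change of 0.33 ± 0.20 (SE) did not pass (limma adjusted p = 0.253), and it did pass at the same size when P28 knockout library 2 was left out of the shared error (limma adjusted p = 0.0177). The long form made up 44.1%, 32.9% and 36.6% of both forms in wild type and 24.3%, 14.0% and 23.1% in knockout at 12 months. At P28 the shares were 40.3%, 36.5% and 32.1% in wild type and 26.8%, 41.0% and 24.7% in knockout, with library 2 above the wild-type group. At P28 Gnb5-203 was 12.9, 11.7 and 8.58 RPKM in the wild-type libraries against 28.9, 12.5 and 31.1 RPKM in the knockout ones, where library 2 lay inside the wild-type range. With that library its log2 fold change of 1.01 did not pass (limma adjusted p = 0.159), and at 12 months it was 0.04. Gnb5-207, a noncoding transcript from the last exons of the gene, rose at 12 months by 0.36 (limma adjusted p = 0.0444). Its call ended in 10 of the 12 fits that left out 1 library. The noncoding Gnb5-205, at most 2.73 RPKM, fell by 1.46 (limma adjusted p = 0.0300), a call that ended in 4 of the 12 fits. The gene value, summed over these forms, had a log2 fold change of 0.10 that did not pass. The whole transcripts of the long and short forms had GC contents of 51.8% and 51.4% and lengths of 1803 and 2105 bases. No coding base of the short form is absent from the long form, so these values do not describe the bases that tell the forms apart. The part of GC, of coverage along the transcript or of RNA quality in the Gnb5 transcript values was not tested. At P28 the short form was 149, 145 and 156 RPKM in the wild-type libraries against 170, 92.5 and 166 RPKM in the knockout ones. Its P28 log2 fold change of -0.12 did not pass (limma adjusted p = 0.821). Markers of inner retinal neurons were higher in knockout at 12 months, and at P28 only those of bipolar cells were so without overlap. The summed level of 7 bipolar cell markers was 1080 to 1220 CPM in wild type and 1260 to 1502 CPM in knockout at P28, and 1168 to 1194 CPM and 1216 to 1279 CPM at 12 months, higher in knockout without overlap at both ages. At 12 months the sum of 5 amacrine markers was 884 to 927 CPM in wild type and 962 to 1045 CPM in knockout, that of 4 horizontal cell markers 115 to 122 and 153 to 184 CPM, and that of 5 ganglion cell markers 481 to 529 and 548 to 630 CPM. These 3 sums overlapped between genotypes at P28. No marker of these 4 lists was at 0 in all libraries of a group, and the part of these levels in the values of the forms was not tested.

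Guca1b-201, the main transcript of Guca1b, fell at 12 months by 1.07 (limma adjusted p = 0.0184), from 297, 246 and 291 RPKM to 152, 89.5 and 167 RPKM. Guca1b-202, with 230 codons against 201 in the main form, was 51.3, 50.0 and 55.2 RPKM in the wild-type libraries against 43.1, 36.3 and 46.9 RPKM in the knockout ones and did not pass (log2 fold change -0.31, limma adjusted p = 0.0671). Guca1a-201, the only transcript of its gene, fell by 1.27, Rcvrn-201 by 0.38 and the minor Gucy2e-202 by 1.19, while Gucy2f-201 rose by 0.54 (limma adjusted p between 0.0270 for Gucy2f-201 and 0.0468 for Rcvrn-201). Among the 12 fits that left out 1 library, the calls of Guca1a-201 and Rcvrn-201 ended in 9 each. Those of Gucy2e-202 and Gucy2f-201 ended in 5 each, and that of Guca1b-201 in 3. With age 0 of 24 transcripts passed in wild type by limma, against 0.811% of all transcripts, and 8 had an unadjusted p under 0.05, against 10.2% of all transcripts. In knockout 4 rose (Gnb5-207, Grk1-202, Gucy2e-201 and Rgs9bp-201) and 2 fell (Rcvrn-201 and Rgs9-205), against 4.39% and 3.6% of all transcripts (8% in either direction). Leaving out P28 knockout library 1 or 12-month knockout library 1 or 2 left 0 of these. The age call of Rcvrn-201 ended in 11 of the 12 such fits, that of Rgs9-205 in 8 and that of Gucy2e-201 in 7. When P28 knockout library 2 was left out, 8 passed with age in knockout and 2 in wild type, Grk1-201 and Gucy2e-204 in both genotypes. The share over all transcripts in that setting is not given here. Over all genes, 1650 of 16211 then passed with age in wild type, against 885 of 16336 with that library. In knockout 4117 genes passed without it and 4450 with it. The transcripts not described so far are Gnb5-204, Gnb5-208, Grk1-201, Grk1-203, Gucy2e-204, Rgs9-202, Rgs9-203 and Slc24a1-201, with mean levels from 1.55 RPKM for Gnb5-204 to 252 RPKM for Slc24a1-201. None of them passed in any comparison with all libraries, and their 12-month log2 fold changes ran from -0.57 for Grk1-203 to 0.26 for Gucy2e-204.

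The share of the main transcript within its gene, which does not depend on a single scaling factor per library, could be tested for 5 members with several expressed transcripts. Genotype was permuted within age (two-sided exact permutation test, 400 arrangements, smallest possible p 0.005), and p-values were adjusted over the 5 genes. The share of Guca1b-201 differed by -6.41 percentage points in knockout on average (exact permutation p = 0.01, adjusted 0.025). It was 87.1%, 83.4% and 84.5% in wild type and 81.5%, 83.5% and 76.8% in knockout at P28, and 85.3%, 83.1% and 84.0% against 77.9%, 71.1% and 78.1% at 12 months. The share of Rgs9-204, the transcript of the 484-codon retinal form, differed by -4.10 points (exact permutation p = 0.005, adjusted 0.025). It was 87.6%, 88.3% and 89.9% in wild type and 82.4%, 80.6% and 83.7% in knockout at P28, and 86.4%, 86.0% and 86.0% against 84.1%, 84.5% and 84.2% at 12 months, so that no groups overlapped between genotypes at either age. The level of Rgs9-204 itself was not lower at P28, with means of 151 RPKM in wild type and 192 RPKM in knockout. Its P28 log2 fold change was 0.34 (limma adjusted p = 0.310). Those of Rgs9-202 and Rgs9-203 were larger, 0.75 (limma adjusted p = 0.0696) and 1.26 (0.0935), and did not pass. At 12 months the 3 values were -0.12, 0.17 and 0.10. GC content differed between the forms: it was 55.9% in Guca1b-201 against 52.8% in Guca1b-202, and 49.5% in Rgs9-204 against 48.2% in Rgs9-203 and 54.9% in Rgs9-202. The part of GC in these shares was not tested. The long brain form Rgs9-201 (675 codons) was at a mean of 0.0437 RPKM. For Gucy2e-201, Grk1-202 and Gnb5-206 the exact permutation test gave adjusted p of 0.870, 0.870 and 0.617, with differences of 0.30, -0.24 and 2.56 points. Without P28 knockout library 2 the shares of Gnb5-206 and Gucy2e-201 passed too, higher by 4.43 and 1.43 points (exact permutation, adjusted p = 0.0313 each). Between ages 0 of 5 shares passed, and the smallest unadjusted exact permutation p was 0.125.

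**Figure D5:**
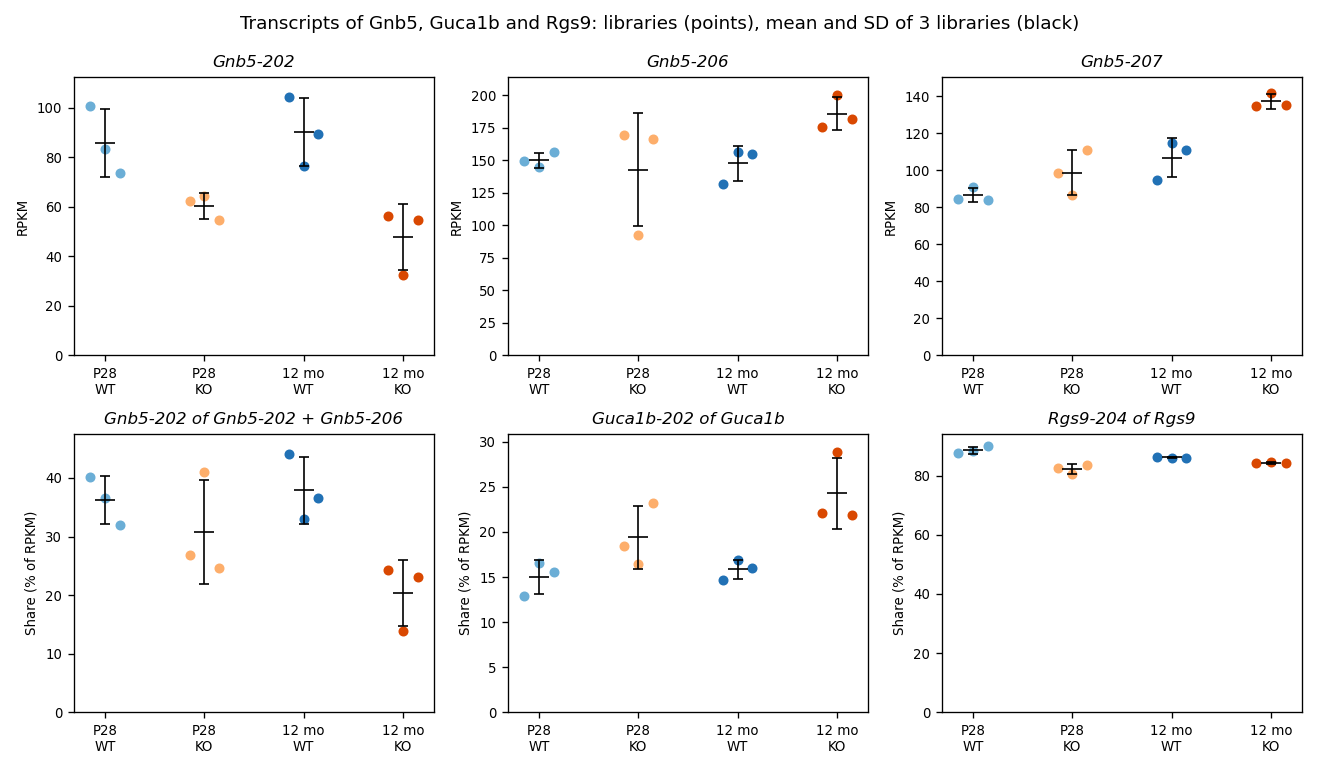
The upper panels plot the RPKM of Gnb5-202 (long coding form), Gnb5-206 (short coding form) and the noncoding Gnb5-207, and the lower panels shares in percent of RPKM, each from 0, for the 4 groups. Points are libraries and black bars the mean and SD of 3. Gnb5-202 is lower in every knockout library than in any wild-type library of its age, and the Rgs9-204 share is lower in all knockout libraries.

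Across the 12 libraries the members did not form 1 block. The highest Pearson correlations of log2(CPM + 1) between members were 0.94 for Grk1 with Rgs9bp, 0.93 for Guca1a with Guca1b and 0.93 for Guca1a with Slc24a1, and the lowest was -0.74 for Gucy2f with Rcvrn. Over all genes, the pattern most like Guca1a was that of Pwp2 (r = 0.99), then Fscn2, a photoreceptor actin bundler, and Vtn (0.98 each). For Gucy2f it was Zfp292, Ranbp2 and Ktn1 (0.96, 0.96 and 0.95). For Guca1b it was Sdhaf1, Rps19bp1 and Kars (0.98 each). For Gnb5 it was Cfap20 (0.96), Otx2, a photoreceptor and bipolar transcription factor (0.95), and Atxn1 (0.92). The other members had first matches of 0.95 to 0.98, namely Bub1b for Gucy2e, Tubb2a for Rcvrn, Gm11754 for Grk1, Gramd1b for Rgs9, Etnppl for Rgs9bp and Tbcc for Slc24a1. These correlations are descriptions, and the libraries share their group differences, depth and base composition.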

How the data were processed

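The gene table is a linear signal in the units the authors deposited. Per the series text, kallisto 0.45.0 estimates (Ensembl 102) were summed to genes with tximport 1.30.0, turned into CPM and TMM-scaled with edgeR 4.0.3. Transcript values are RPKM as deposited, and how they were made is not given in the sources used here. The text names the human reference GRCh38.p7, but identifiers and coordinates are mouse GRCm38, and all 27 member transcripts had the same ends in GENCODE M21, from which coding lengths, GC and genome sequence were taken. Neither table holds counts. Only 10.8 to 28.5% of low values were whole reads within 0.01, so no count model was used. Precision is limited by 3 libraries a group, and the floor of 3 reads covers counting error only.

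Rows on assembly patches (650) were summed with the chromosome row of the same symbol, since 611 of them held equal values, within 1e-06, as if reads had been split evenly. This affects Guca1a and Guca1b, whose CPM are sums of 2 such rows. The step was chosen after seeing the files.

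Genes with CPM of at least 1 in at least 3 libraries (16336) entered limma 3.58.1 (R 4.3.3) on the log2(CPM + 1) scale, with 4 group means and eBayes with trend, and transcripts with RPKM of at least 0.5 in at least 3 libraries (46607) as log2(RPKM + 0.5). P-values were adjusted by Benjamini-Hochberg over all features, with a threshold of 0.05, and fold changes are on those scales. On simulated data for the P28 comparison (16336 genes), 29.4%, 80.1% and 98.5% of changes of 0.5, 1 and 2 on the log2 scale were recovered. The simulated noise was independent between genes and libraries. It held no library that stood apart and no GC trend, so these rates need not hold for the real libraries. Named are all members, their transcripts with a mean RPKM of at least 1, up to 3 genes of each other list by smallest p in each contrast, and the genes most correlated with each member (3 for the first 4 given, 1 for the others). The minor transcript Rgs9-201 and the transcripts and genes given for removal of single libraries or of GC and length trends were named after their values were seen. The members and lists were chosen with earlier results of these data known. Alternatives were other pseudocounts, filters, scalings, summed RPKM, only the compared groups, a replicate block, a sex term, GC and length trends, unsummed rows and leaving out each library.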

Additional observations from a re-analysis of the deposited data

How the results depend on the processing

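With GC and length trends removed, 1 member passed at 12 months (Gucy2e, 0.26 in place of -0.0053) and 2 over both ages, Rcvrn turned to 0.12 and 0.0558, and 0 passed with age in wild type. The trends were fitted on 99.2% of tested genes. Of all 16211 genes then tested, 1089 passed at 12 months, 1575 over both ages and 1276 with age in wild type. The 1 call with age in wild type also became 0 with no filter, median-of-ratios rescaling, quantile normalization, the replicate block and the sex term, and 3 when only the compared groups were fitted. Over all genes the calls were 671, 846, 947, 665 and 357 in these settings in that order. With only the compared groups 2277 of 16336 genes passed, against 885 in the main fit. With age in knockout the member count became 1 under quantile normalization and 0 with only the compared groups. Over all 16336 genes 4244 and 1557 then passed, against 4450 in the main fit. With the replicate block, 5 transcripts passed at 12 months and 3 with age in knockout. Members then numbered 4 at 12 months and 3 with age in knockout, where 5815 and 3793 of all 16336 genes passed. Same-numbered libraries did not deviate together (18 pairs, r from -0.36 to 0.31), so the numbers are not taken as pairing. Leaving out 1 library at a time gave 0 to 3 members at P28, 2 to 4 at 12 months, 4 to 7 over both ages, 0 for the difference between ages, 0 to 1 with age in wild type and 1 to 5 in knockout. For transcripts it gave 0 to 3, 0 to 10, 0 to 2 and 0 to 8 in the order P28, 12 months, age in wild type and age in knockout, and for shares 2 to 4 by genotype and 0 by age. For these fits and the replicate block, the percentage of all transcripts that passed is given only at P28 without P28 knockout library 2 (1.4%). Counts over all genes do not stand in for it. The lowest 12-month count, 2, was without knockout library 2, and the 7 over both ages without P28 knockout library 2. Over all genes, fits that left out 1 library called 3 to 1399 at P28, 3490 to 7666 at 12 months and 4211 to 7475 over both ages. With age they called 408 to 1650 in wild type and 2457 to 5455 in knockout. At 12 months Guca1a also missed the threshold with no filter (adjusted p = 0.0551) and with the sex term (0.0722), and Gucy2f under quantile normalization (0.0868). Of 700 member values under settings that left out no library, 31 had the other sign, 28 of them where neither value was called. Unsummed patch rows changed no count of members. Where not stated otherwise the cause was not tested.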
